A study of Homo sapiens with 16 samples.

Results

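The REXO1L array is a run of nearly identical DNA copies on chromosome 8 of the human genome, and most copies carry a pseudogene of the REXO1L family. The peaks described here are those in the window from base 85550001 to base 85900000 of chromosome 8 (hg38) that overlapped it by any base. They number 92 of the 40118 peaks in the 9 peak lists of the series, and chromosome 8 as a whole held 922. The window was chosen because peaks were known to lie there, so the number, length, fold and rank of these peaks within each list are a description without a test. Tests were made only between KD and CT.

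All samples came from HEK293T, an established line of human embryonic kidney cells, and DNA was captured with 1H6, an antibody against G-quadruplexes. In AbC the antibody was given to permeabilised, briefly fixed cells, so that it met the DNA inside the nucleus. The 6 AbC lists come from cells with a stable non-targeting shRNA (CT) or a stable shRNA against CGGBP1 (KD), in 3 experiments: CTnuc and KDnuc without added DNA, CTut and KDut with 500 ng of control DNA added to the lysate, and CTtr and KDtr from cells transfected with 1.25 µg of control DNA per dish 12 hours before. The other lists come from cells without shRNA: G4-ChIP, with the antibody added to sonicated fixed chromatin, G4 DNA-IPnat on purified native DNA, and G4 DNA-IPdenat on purified DNA that had been denatured. Each list stands for 1 sequenced library in which replicates had been pooled. CTnuc and KDnuc were sequenced on an Ion Torrent and the other AbC libraries on a MinION, so sequencer and added DNA cannot be told apart in comparisons between experiments. The lists hold no read counts, and the depth behind a peak is not known from them.

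G-quadruplexes are four-stranded structures of guanine-rich DNA, in which guanines from several runs pair in stacked planes. Tandem gene arrays arise by repeated duplication, and their copies can stay so alike that a sequenced fragment is hard to assign to a single copy. REXO1L genes are relatives of REXO1, which belongs to a family of RNA exonucleases. CGGBP1 is a small nuclear protein that binds CGG repeats.

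In hg38 the array runs from base 85642781 to base 85828705, a span of 185925 bp or 0.128% of the chromosome. A stretch of unknown sequence, 50000 bp long from base 85664223 to base 85714222, lies inside it and leaves 135925 known bases. Identical 31-base words recurred most often at distances near 12200 bp, when distances were grouped in bands of 50 bp. The most frequent single distance was 3085 bp, from a shorter segment that is repeated within some copies, and the next was 12193 bp. A unit of 12193 bp was taken as reference, from the start of REXO1L4P at base 85802574 to base 85814766. Its alignment gave 22 blocks of at least 1000 bp and 95% identity. The lowest identity among them was 98.8%. They form 14 copies, of which 8 are whole and 6 are parts. Parts from base 85737287 to base 85742406 and from base 85742400 to base 85744543 lack the unit positions of the gene.

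The whole copies were not alike in length. They ran from 11907 bp to 21453 bp, and 3 of them held 6 extra segments of about 3085 bp between them. The longest, from base 85715833 to base 85737285, had 3 extra segments and lay in reverse orientation, whereas the other 7 whole copies lay in forward orientation. GENCODE version 44 places 11 genes with REXO1L symbols in the window among 15 annotated genes. A further copy without a symbol, ENSG00000274343, is annotated as a processed pseudogene like most of the others.

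**Figure D1:**
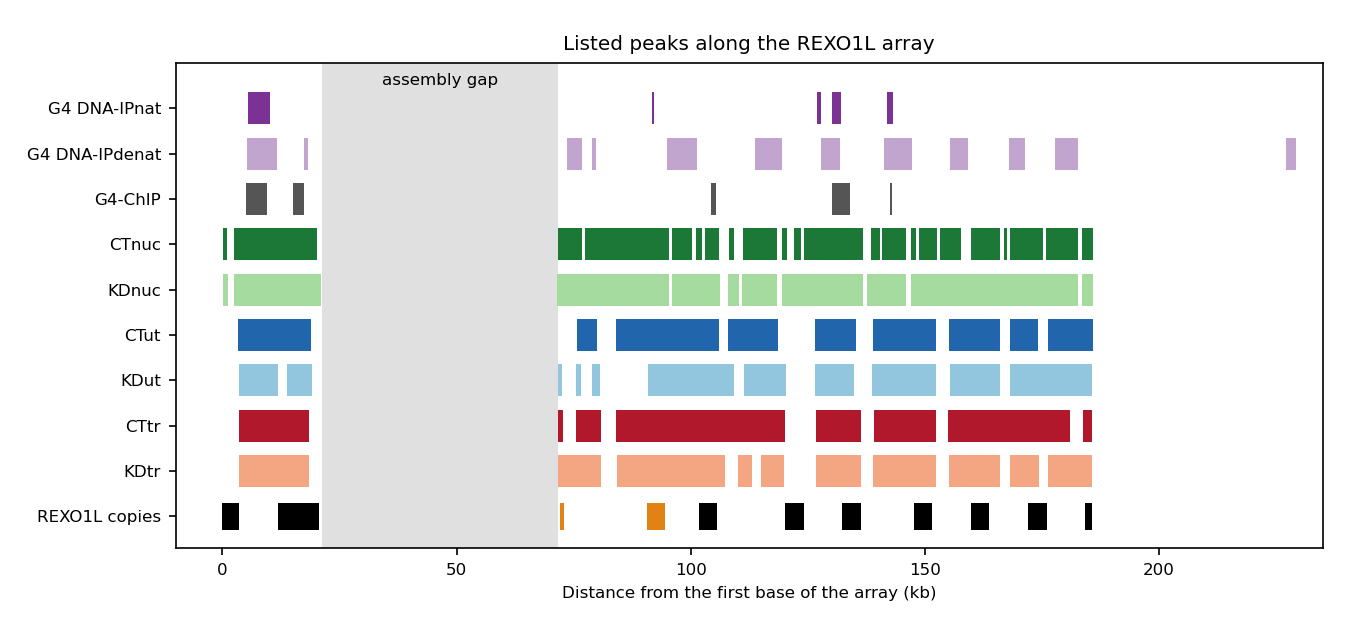
Peaks of the 9 lists (coloured bars, 1 row per list) by distance in kb from the first base of the array, with the annotated REXO1L copies in the bottom row (black on the minus strand, orange on the plus strand) and the 50000 bp of unknown sequence in grey. The 6 AbC rows are filled along most of the array, the other 3 rows only in parts, and a single G4 DNA-IPdenat peak lies beyond the last copy.

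Peaks of all 9 lists lay in the array. With the genome cut into 8648 windows of the same length, 0.867% held a peak of every list. In the AbC lists most of the array was covered. CTnuc had 22 peaks, which covered 113362 bp or 83.4% of the known array bases, and 0.694% of all windows had as many peaks. KDnuc had 10 peaks over 127139 bp, or 93.5%, against 2.32% of windows with as many. CTut had 9 peaks over 101026 bp, or 74.3%, a number found in 1.45% of windows. KDut had 11 peaks over 94243 bp, or 69.3%, and as many were found in 0.89% of windows. CTtr had 8 peaks over 108251 bp, or 79.6%, with as many in 0.948% of windows. KDtr had 10 peaks over 104014 bp, or 76.5%, with as many in 0.59% of windows.

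The number of peaks set the array apart less than the covered length did in all 6 AbC lists. As many covered bases were found in 0.0463% of windows for CTnuc and 0.0578% for KDnuc, that is, in 4 and 5 windows. In the MinION AbC lists the share of windows with as many covered bases was 0.335% for CTut, 0.289% for KDut, 0.266% for CTtr and 0.254% for KDtr. The longest KDnuc peak of the array, 35572 bp from base 85789815 to base 85825386, was the longest peak of its whole list, and the longest CTnuc peak, 17851 bp from base 85720273, ranked 2 by length. The longest CTtr peak had 36198 bp and took in REXO1L11P and REXO1L10P whole.

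The remaining lists covered smaller parts. Peaks of G4-ChIP and G4 DNA-IPnat were called with a narrower bandwidth than those of AbC and G4 DNA-IPdenat, and its part in their cover was not tested. G4-ChIP had 5 peaks over 12137 bp, or 8.93% of the known bases, and 0.659% of windows had as many. G4 DNA-IPnat also had 5, over 8963 bp or 6.59%, with as many in 0.116% of windows. As many covered bases were found in 0.532% of windows for G4-ChIP and 0.185% for the native DNA. In G4 DNA-IPdenat 12 peaks overlapped the window; 1.14% of windows had as many peaks and 0.601% as many covered bases. Of these, 11 lay in the array and covered 33.6% of its known bases. The twelfth, from base 85869950 to base 85871922, lay beyond the array and overlapped the end of a stretch of 3633 bp, up to base 85871919, that matches the unit at positions 7912 to 11573 with 87.9% identity.

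The share of chromosome 8 peaks that lay in the array varied widely between lists. It was 44.9% in CTnuc (22 of 49) and 9.26% in KDnuc (10 of 108). The ut pair had 10.1% in CTut (9 of 89) and 32.4% in KDut (11 of 34), and the tr pair 28.6% in CTtr (8 of 28) and 52.6% in KDtr (10 of 19). In G4 DNA-IPnat it was 83.3% (5 of 6), in G4-ChIP 29.4% (5 of 17) and in G4 DNA-IPdenat 1.92% (11 of 572). The nearest listed peak to the left lay 5257 kb away in CTut, 28429 kb in CTnuc and 156 kb in G4 DNA-IPdenat. Neither CA2, the carbonic anhydrase gene nearest on the left, nor the lncRNA gene LINC02849 overlapped a peak in any list. ATP6V0D2, which encodes a subunit of the vacuolar proton pump and is the nearest coding gene on the right, was overlapped in G4 DNA-IPdenat alone, over 0.4% of its length.

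Array peaks lay closer together in the nuc lists than in the MinION lists. Neighbouring CTnuc peaks on the same side of the unknown stretch were separated by a median of 785 bp (20 spaces) and KDnuc peaks by 948 bp (8 spaces), whereas the medians were 2822 bp in CTut, 2970 bp in KDut, 2921 bp in CTtr and 2732 bp in KDtr. The CTnuc list numbers its peaks up to 10757 but holds 3796 of them, so that 6961 numbers are absent, and the KDnuc list runs up to 22266 with 14513 absent. No number is absent from the other 7 lists. The rule behind this is not given in the sources used here, and the ranks, list medians, window shares and list shares of both nuc lists refer to the peaks that remain. Between the first and the last array peak, 4 numbers are absent in CTnuc and 1 in KDnuc. When peaks under 1 kb apart were joined, CTnuc had 10 and KDnuc 6, and no other count changed. The 4 MinION AbC lists placed the start of the first peak within 166 bp of each other and the end of the last within 208 bp.

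For AbC and G4 DNA-IPdenat the methods name the peak-calling option nolambda, under which the background is not taken from the local input. Fold is therefore given as deposited, not as enrichment over the local input. The CTnuc peaks ran from 5.15 to 11.8 with a median of 6.99, beside a median of 5.22 over the whole list. In KDnuc the range was 6.42 to 11.0 and the median 7.52, beside 4.69. The CTut peaks had a median of 6.76 (4.34 to 9.59) beside 4.01, and the KDut peaks 5.24 (3.97 to 8.64) beside 3.72. Medians in CTtr and KDtr were 5.47 (4.53 to 7.37) beside 3.75, and 5.97 (4.49 to 7.93) beside 4.21. For the 11 G4 DNA-IPdenat peaks in the array the median was 8.53 (6.38 to 11.5) beside 4.67, and for G4-ChIP 5.24 (4.69 to 5.40) beside 4.61. G4 DNA-IPnat was the exception, with a median of 5.23 (4.51 to 6.80) below the list's 5.87. Every array peak lay above its list's median in 7 lists, 21 of 22 did so in CTnuc and 1 of 5 in G4 DNA-IPnat.

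No list had its highest peak in the array. The best array peak ranked 205 of 3796 in CTnuc, 248 of 7753 in KDnuc, 154 of 3496 in CTut, 145 of 2927 in KDut, 144 of 2367 in CTtr and 182 of 2389 in KDtr. It ranked 146 of 15709 in G4 DNA-IPdenat, within the top 0.929%, 159 of 1455 in G4-ChIP and 42 of 226 in G4 DNA-IPnat. The highest nuc peaks began next to the unknown stretch, at base 85714358 in CTnuc and base 85714294 in KDnuc. In CTut, KDut and CTtr the highest peak began at base 85769379, 85769358 and 85769483, in the copy of REXO1L9P, and ran into REXO1L2P in the next copy. In KDtr it began at base 85646351, in the first copy.

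**Figure D2:**
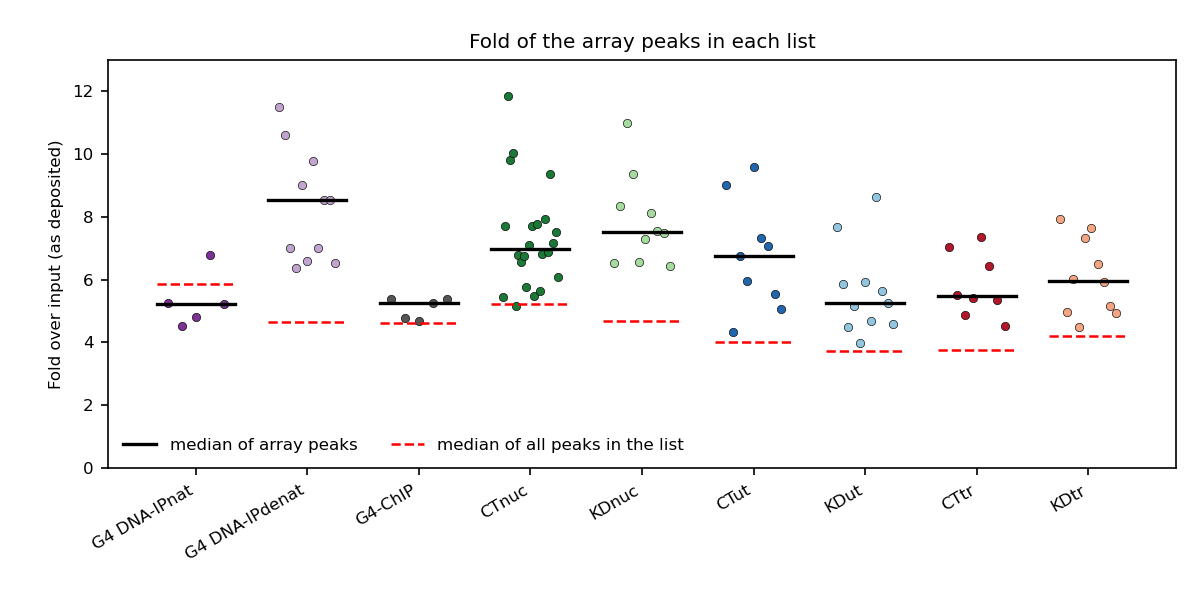
Fold, as deposited, of every array peak in each list (points, in order along the chromosome). Lines mark the median of the array peaks (black) and of all peaks in that list (red dashed). The black line is above the red one in 8 lists and below it in G4 DNA-IPnat.

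Folding the known bases of all copies onto the reference unit showed where in the unit the peaks lay. In the unit, REXO1L4P takes positions 1 to 3862, with its annotated 3′ end at position 1, since the gene lies on the minus strand. Positions 7900 to 11542, a segment of 3643 bp, match at least 1000 other places in the genome at every base, up to 34890, and are called the interspersed segment here. No base of the gene body matched more than 30 other places. GC made up 56.8% of the gene body and 41.8% of the interspersed segment, and the density of GGG or CCC triplets was 43.5 and 24.7 per kb. The unit holds 4 canonical signatures, that is, at least 4 GGG or CCC runs with loops of 1 to 7 bases: 2 in the gene body, 1 in the interspersed segment and 1 in the last 651 bp.

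G4 DNA-IPdenat peaks did not meet the gene body as defined on the reference unit, at positions 1 to 3862. Their cover was 0% of the bases aligned to the gene body and 94.9% of those aligned to the interspersed segment, with 22.2% between them. From position 8501 to position 10500 every aligned base was covered. In G4-ChIP the 2 values were 7.3% and 10.2%, and in G4 DNA-IPnat 0.9% and 11.2%. The native DNA was covered most at positions 7001 to 7500, before the interspersed segment, with 33.9%.

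The AbC lists covered the gene body as well. Cover of the gene body was 83.0% in CTnuc, 94.8% in KDnuc, 65.7% in CTut, 60.9% in KDut, 72.5% in CTtr and 68.0% in KDtr. In the interspersed segment it was 81.1%, 90.2%, 90.6%, 90.8%, 87.4% and 98.5% in the same order. The 4 MinION lists were thus higher in the interspersed segment than in the gene body, and both nuc lists lower. Within the segment, both nuc lists still covered every aligned base from position 8501 to position 10000. The lowest cover in the nuc lists was at positions 11001 to 11500, with 48.1% in CTnuc and 67.9% in KDnuc, where the MinION lists had at least 81.8%.

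The matches of the interspersed segment elsewhere in the genome allowed the same question to be asked outside the array. They make up 2.72% of the known bases of chromosomes 1 to 22 and X. Of the bases in G4 DNA-IPdenat peaks outside the array window, 52.1% lay in such matches, and 9420 of 15697 peaks touched one (60.0%, exact 95% interval 59.2% to 60.8%). The other lists were below the genome's share, with 1.84% of the bases in G4-ChIP, 0.665% in G4 DNA-IPnat, 0.688% in CTnuc, 0.913% in KDnuc, 2.37% in CTut, 1.95% in KDut, 2.27% in CTtr and 1.77% in KDtr. The interval covers counting error only.

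**Figure D3:**
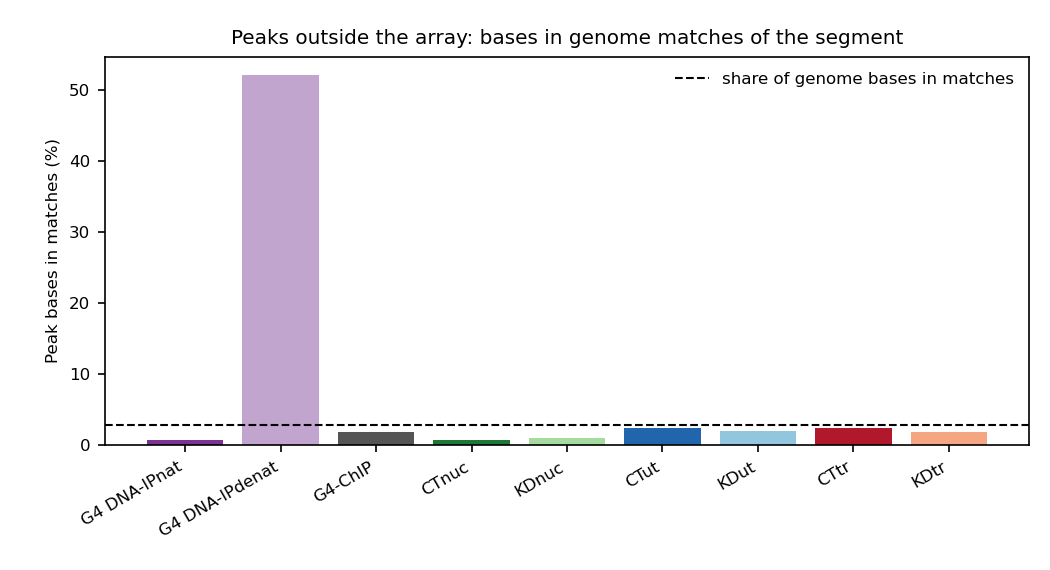
Share of peak bases outside the array window that lie in genome matches of the interspersed segment (%, 1 bar per list), with the share of all known genome bases in such matches as a dashed line at 2.72%. The bar of G4 DNA-IPdenat reaches 52.1% and the other 8 stay under the line.

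All 9 lists covered 3 regions, with 6153 bp or 4.53% of the known bases. They are also the regions shared by the 4 methods, CTnuc standing for AbC. The longest lies from base 85648256 to base 85652414 at unit positions 5760 to 9919 of the first copy. The others lie from base 85773051 to base 85774736, at unit positions 10140 to 11825, and from base 85785383 to base 85785690, at 7195 to 7502. None of the regions overlaps an annotated gene. Their GC contents were 40.9%, 42.2% and 44.8%. The 6 AbC lists shared 53.6% of the known bases in 20 regions.

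Listed cover differed between copies in spite of their near identity. Only uniquely aligned reads had been kept, which limits values for single copies. Peaks covered 100% of REXO1L4P in each of the 6 AbC lists, while G4-ChIP and both DNA-IP lists had none there. REXO1L9P was covered by 51.0% in CTnuc and 100% in KDnuc, but by 0% in CTut, 6.2% in KDut, 2.3% in CTtr and 0% in KDtr. REXO1L8P, at the left end, was covered by 53.3% and 58.0% in the nuc lists and by at most 2.7% in the MinION lists. REXO1L1P, a transcribed pseudogene next to the unknown stretch, had between 67.7% and 100% in the AbC lists, 32.1% in G4-ChIP and 12.3% in the denatured DNA; its annotated body reaches beyond a single copy. It was the only REXO1L gene with a G4 DNA-IPdenat peak. REXO1L2P had the largest cover in G4-ChIP, 41.4%, and REXO1L11P was the only gene touched in G4 DNA-IPnat, with 10.5%. REXO1L12P, REXO1L3P, REXO1L5P, REXO1L6P and REXO1L10P were covered in part or in full in at least 5 of the AbC lists, and ENSG00000274343 in all 6.

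The sequence of the array is richer in GC than its surroundings, with 47.6% against 37.7% on the left and 37.4% on the right within the window, and holds 31.6 triplets per kb against 19.3 and 20.6. Array peaks had a median GC content between 41.2% in G4 DNA-IPnat and 48.5% in CTnuc, above the median of all peaks in every list (35.3% to 39.3%). Triplets per kb had a median of 32.1 in the CTnuc array peaks beside 10.7 in the whole list, and of 22.9 in the G4 DNA-IPdenat array peaks beside 17.7. Within the array the peaks were not richer throughout. Medians lay below the array's own values in G4-ChIP (45.4% GC, 22.7 triplets per kb), the denatured DNA (41.5%, 22.9) and the native DNA (41.2%, 23.7). In the AbC lists, which covered most of the array, they lay on both sides of its values (46.9% to 48.5%, 30.9 to 33.0). A canonical signature lay in 20 of 22 CTnuc peaks, 10 of 10 in KDnuc and in KDtr, 9 of 9 in CTut, 9 of 11 in KDut and 8 of 8 in CTtr. It lay in 7 of 11 G4 DNA-IPdenat peaks in the array, 3 of 5 in G4-ChIP and 2 of 5 in G4 DNA-IPnat. The array holds 48 signatures, and CTnuc and KDnuc peaks covered 83.4% and 93.5% of its known bases. The share of all listed peaks with a signature was not computed here. Over whole lists, counted with another tool, the paper reports a higher share in G4 DNA-IPnat than in CTnuc. Long peaks hold more sequence, and the part of length in these counts was not tested.

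Among 9 other tandem gene arrays, only RNA5S and DUX4L had peaks in all lists. The REXO1L cluster had the largest covered share of known bases in 5 AbC lists. KDut was the exception, where RNA5S, the 5S ribosomal RNA genes on chromosome 1, had 83.5% against 69.4% for REXO1L, measured between its outermost genes. RNA5S was also higher in G4 DNA-IPdenat (70.1% against 33.6%), G4-ChIP (13.2% against 8.9%) and G4 DNA-IPnat (11.4% against 6.6%). The RNA5S cluster has a GC content of 67.8%. USP17L, a family of deubiquitinase genes on chromosome 4, had a GC content of 49.4% and a triplet density of 33.7 per kb, close to REXO1L, with 29.6% covered in CTnuc, 55.8% in KDnuc and 3.8% to 19.4% in the MinION AbC lists. CT47A, on the X chromosome, had 48.5% GC and no peak in any list. The families were picked by name, and nothing was tested between them.

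The comparison of KD with CT asks whether depletion of CGGBP1 changed the capture of the array. Peak numbers were 22 in CTnuc and 10 in KDnuc, 9 and 11 in CTut and KDut and 8 and 10 in CTtr and KDtr. The mean was 13.0 ± 7.8 in CT and 10.3 ± 0.6 in KD (SD, n = 3), and the mean difference of -2.67 ± 8.08 was within the spread between pairs (exact sign-flip test over 3 pairs, two-sided, p = 1). The smallest p that 3 pairs allow is 0.25. With peaks under 1 kb apart joined, a setting added after the data were seen, the mean difference was 0.

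The difference in covered length, KD minus CT, was 13777 bp in the nuc pair, -6783 bp in the ut pair and -4237 bp in the tr pair, with a mean difference of 919 bp ± 11208 (exact sign-flip p = 1). The median fold of the array peaks differed by 0.53 in the nuc pair, -1.52 in the ut pair and 0.50 in the tr pair, with a mean difference of -0.16 ± 1.17 (exact sign-flip p = 1). The array's share of all listed peaks was 0.580% in CTnuc and 0.129% in KDnuc, over the peaks that remain in these lists. Neighbouring array peaks are pieces of 1 repeat in 1 library, so no interval is given for these shares. It was 0.257% and 0.376% in the ut pair and 0.338% and 0.419% in the tr pair. The mean difference was -0.0839 percentage points ± 0.318 (exact sign-flip p = 1).

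**Figure D4:**
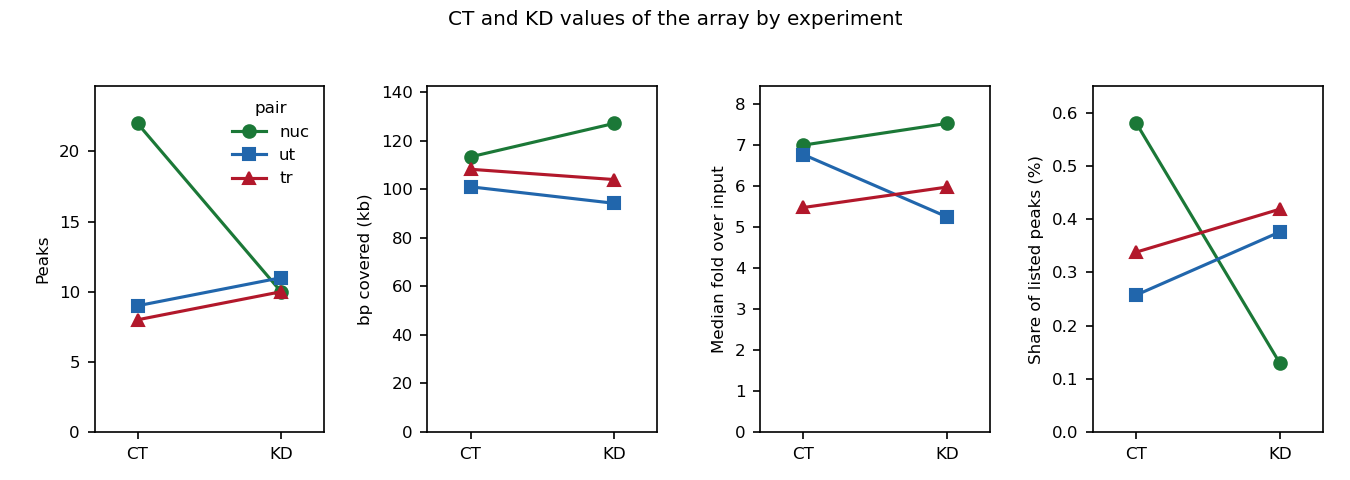
Number of array peaks, covered length (kb), median fold as deposited and share of all listed peaks (%) in CT and KD. Each of the 3 experiments has a line. The lines of the nuc pair and of the 2 MinION pairs slope in opposite directions for peak number, covered length and share.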

How the data were processed

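Broad peak lists of 9 libraries were analysed; 7 input libraries were not analysed here. The fold over input (a ratio), the -log10 p-value and q-value and the score of each peak were used or read as deposited by the authors, who aligned reads to hg38 with minimap2, per the labels (supplementary tables name bowtie2 for the nuc libraries), kept uniquely aligned reads and called peaks against input with MACS2, on libraries pooled before sequencing. The methods name a wider bandwidth for AbC and G4 DNA-IPdenat, and its part in peak length was not tested. They also name the option nolambda for these lists, so that fold there is not corrected for the local input.

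Overlaps, ranks and coverage were computed with pysam 0.24.0, scipy 1.17.1, pandas 2.3.3 and numpy 2.4.6 under Python 3.11.15. The unit was aligned with blastn 2.17.0, keeping blocks of at least 1000 bp and 95% identity in the window and matches of at least 300 bp in the genome. Windows of 350 kb tiled along chromosomes 1 to 22 and X served as background. Genes are from GENCODE version 44. KD and CT were compared by an exact sign-flip test over 3 pairs, and by permuting labels, in 4 comparisons. The functions recovered 18 of 18 checks on simulated data. The members, lists and rules were chosen with earlier results of these data known. Named were every annotated gene in the window, the nearest coding genes, and the highest and longest peaks. Base sequences of the array are not reported here.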

Additional observations from a re-analysis of the deposited data

Results flagged for a closer look

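KD and CT differed in opposite directions in the nuc pair and in both MinION pairs for 3 measures, and the difference between pairs was not tested. Peak number, KD minus CT, differed by -12 in the nuc pair, 2 in the ut pair and 2 in the tr pair. Covered length differed by 13777 bp, -6783 bp and -4237 bp in the same order. The array's share of all listed peaks differed by -0.451, 0.118 and 0.0806 percentage points. The nuc pair differs from the others in sequencer, in having no added DNA and in an input pooled from both shRNA groups, where the other pairs have an input each. Its lists also lack 6961 peak numbers in CTnuc and 14513 in KDnuc, against 0 in the other lists. Between the first and the last array peak, 4 are absent in CTnuc and 1 in KDnuc. The part of absent numbers in peak number and share was not tested. These differences between experiments cannot be told apart.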

How the results depend on the processing

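Of the alternatives tried, 102 values stayed on the same side and within 1.5 times or the interval used for them. Leaving out the nuc pair reversed the difference in peak number (range without 1 pair -5 to 2), covered length (-5510 to 4770 bp) and share (-0.185 to 0.0995 percentage points), and leaving out the ut pair reversed that in median fold (-0.51 to 0.51). Without the pairing as a block the differences were the same: -2.67 peaks, 919 bp, -0.16 in fold and -0.0839 percentage points, with exact label permutation p of 1, 1, 0.9 and 0.6; the smallest possible is 0.1. Joining peaks under 1 kb apart gave 10 in CTnuc, 6 in KDnuc and a mean difference of 0. With a -log10 q of at least 4, G4 DNA-IPnat kept 1 peak, 1898 bp and 1 copy, and G4-ChIP 3 peaks and 3 copies. Among chromosome 8 peaks alone the best array peak ranked 1 in KDnuc, 2 in CTnuc, G4-ChIP and G4 DNA-IPnat, 3 in CTut and KDut, and 4 in CTtr, KDtr and G4 DNA-IPdenat. The cause of these moves was not tested. Read depth is not in the lists. Reads from the unknown stretch or from nearly identical copies cannot be assigned to their true place, and could align to a known copy instead. This limits values for single copies, and also the cover and fold of the array as a whole.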
